A study of Mus musculus with 9 samples.

Results

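Transcripts of 38 genes of sterol and fatty acid synthesis were measured by RNA sequencing in mouse embryonic fibroblasts (MEFs) after transfection of nucleic acids that mimic viral DNA or RNA. The 38 are a list of symbols covering targets and regulators of the SREBP and LXR transcription factors. Matched through the GENCODE M21 annotation of GRCm38, all 38 were found among the 46603 gene identifiers of the deposited count files, and all 38 were among the 14176 genes with enough counts to test. Every library came from β-actin knockout (Actb-/-) MEFs of the BALB/c strain, made from embryos of day 10.5, so the knockout is shared by the control and both treatments. The mock group received a cationic lipid transfection reagent alone for 6 h. A second group received the same reagent with 10 µg/ml of the double-stranded DNA analogue poly(dA:dT), and another group received it with 10 µg/ml of the double-stranded RNA analogue poly(I:C), also for 6 h and in Opti-MEM medium. Each group held 3 libraries. The knockout fibroblasts were obtained from another laboratory, the labels do not say whether they are 1 line or whether replicates were separate cultures, and no wild-type cells enter these comparisons. Hence the p-values rest on the spread among the 3 libraries of a group, and that spread may be technical only.

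Cells make cholesterol and fatty acids from acetyl-CoA. The genes of both routes are switched on together by SREBP-1 and SREBP-2 (Srebf1, Srebf2), which sit in the endoplasmic reticulum membrane as precursors, are carried to the Golgi for cleavage by SCAP (Scap) when sterols are low, and are held back by INSIG-1 and INSIG-2 (Insig1, Insig2) when sterols are plentiful. Liver X receptors (Nr1h2, Nr1h3) respond to oxidised sterols instead and raise genes of sterol export, such as Abca1 and Abcg1. In cultured fibroblasts the supply of sterol from serum lipoproteins sets how active the synthesis genes are.

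Assigned counts per library ranged from 16082772 to 29219797, and levels are given as CPM, the counts relative to a library size scaled for composition. Actb, the targeted gene, had 924, 772 and 658 counts in the mock libraries, 657, 680 and 716 with poly(dA:dT) and 649, 736 and 565 with poly(I:C), and was not called in either comparison with mock. Which part of Actb is deleted is not stated in the labels, so these counts check nothing about the knockout. The interferon β gene Ifnb1 had 1 count over the 3 mock libraries, 4.86 ± 0.789 CPM (SD, n = 3) with poly(dA:dT) and 88.2 ± 5.6 CPM with poly(I:C). All 14 fibroblast markers listed were tested. Their summed level was 9153 to 9320.4 CPM in mock, 8593 to 8725 CPM with poly(dA:dT) and 7413 to 7729 CPM with poly(I:C), where 10 of the 14 were lower and 3 higher. Thy1, a surface marker of many fibroblasts, was low in every group (1.55 ± 0.35 CPM in mock). Of 8 hepatocyte markers 5 had no count in mock, and the 8 summed to 0.107 to 0.316 CPM. Of 8 adipocyte markers 4, Adipoq among them, had no count in mock. The adipocyte sum of 61.1 to 65.4 CPM in mock and 33.7 to 38 CPM with poly(I:C) was nearly all Plin4 (60.7 ± 3.02 and 34 ± 2.06 CPM). In RNA from a whole culture, fewer cells of a type and less RNA per cell cannot be told apart.

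Poly(I:C) lowered most of these transcripts and poly(dA:dT) moved them little and in both directions. A gene is called here when its adjusted p in edgeR's quasi-likelihood test, corrected over all genes tested, is under 0.05. After poly(I:C), 28 of the 38 members fell, 6 rose and 4 were not called, while 36.3% of all genes tested were called lower and 39.8% higher. The median log2 fold change of the members was -0.35, and that of all genes tested was 0.04. Abundant genes fell more often than scarce ones in this comparison. Among the 8242 genes with a mean of at least 20 CPM, 50.9% were called lower and 35.0% higher, and among the 30 members at that level 25 were lower and 2 higher. Changes were moderate in size: 11 members fell at least 1.5-fold, against 8.18% of all genes tested, and the members' count depends on the scaling. It was 7 with upper-quartile factors, 6 with total counts and 6 with a filter of 50 counts (4.49% of all genes with total counts), where Acly, Dhcr7, Ebp, Elovl6 and, in the latter pair of settings, Nsdhl fell by less than 1.5-fold. Mylip, Nr1h3 and Abcg1 rose at least 1.5-fold, as 21.7% of all genes tested did. All 3 have means under 20 CPM, and scarce genes rose this far more often than abundant ones. Of the 3070 genes that did, 922 were among the 8242 with a mean of at least 20 CPM. For Nr1h3 and Abcg1 a rise was a condition of their being tested. Against mock, poly(dA:dT) gave 8 members called higher, 13 lower and 17 not called, with 26.6% of all genes tested called higher and 26.2% lower. Among genes with a mean of at least 20 CPM, 40.4% were lower and 28.0% higher in that comparison. Of the 30 members at that level, 13 were lower and 5 higher, shares near those of all such genes. The median of all 38 members was -0.02 after poly(dA:dT) and that of all genes tested 0.01. With scaling by total counts alone, 14 members were called higher and 10 lower after poly(dA:dT), and 67.7% of all calls were increases in place of 50.3%. DESeq2 called 3 members higher after poly(dA:dT).

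**Figure D1:**
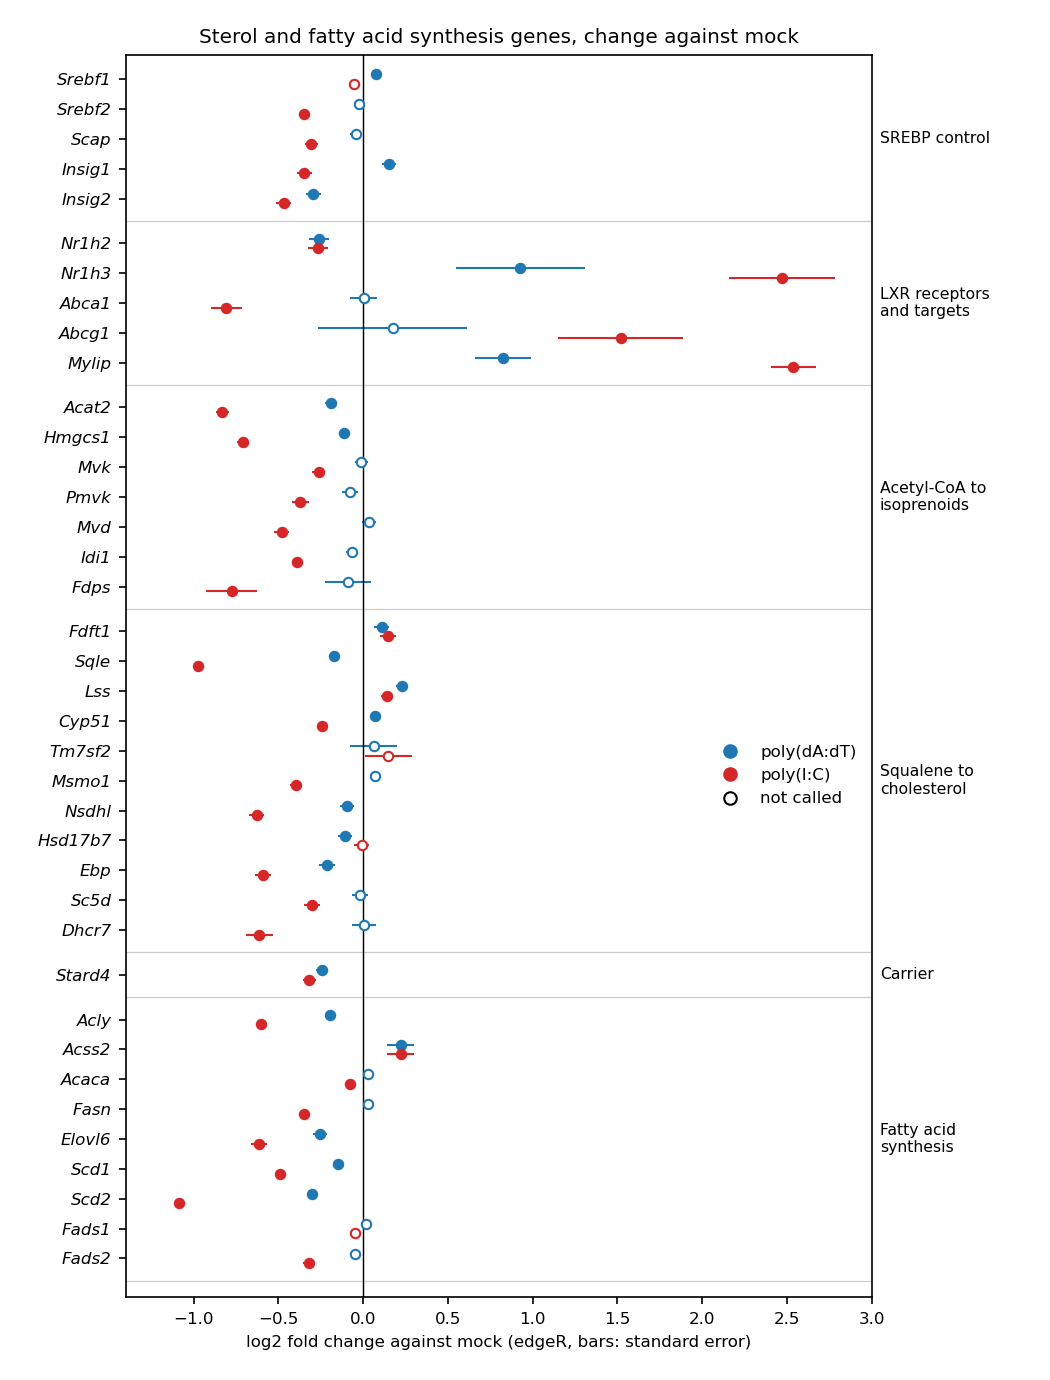
Log2 fold change of each of the 38 members after poly(dA:dT) (blue) and poly(I:C) (red) against mock, ordered by role, with bars for the standard error from edgeR and open circles for members not called. All 7 listed genes from acetyl-CoA to farnesyl pyrophosphate lie left of 0 after poly(I:C), while Mylip, Nr1h3 and Abcg1 lie at 2.54, 2.47 and 1.52. The small fall of Acaca (-0.08) reverses when libraries are scaled by total counts.

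**Figure D2:**
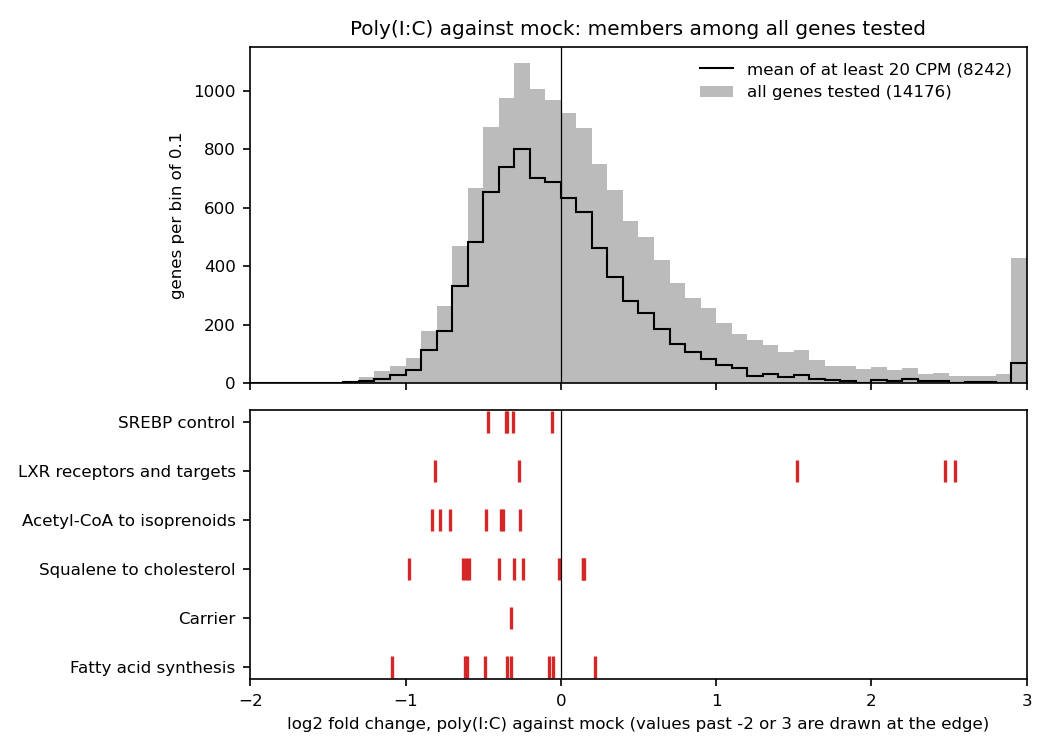
Upper panel, number of genes per bin of log2 fold change between poly(I:C) and mock for all 14176 genes tested (grey) and the 8242 genes with a mean of at least 20 CPM (line); lower panel, each member as a red tick by role. Most ticks lie left of 0, and Scd2, the leftmost, has 0.642% of all genes tested below it.

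In mock cells the members spanned a wide range of level per kilobase (kb) of exon, the scale on which genes can be set side by side. Scd2, the stearoyl-CoA desaturase of most non-hepatic tissues, was the highest at 266 ± 3.91 CPM per kb (SD, n = 3). The citrate lyase gene Acly followed at 84.5 ± 1.67 and Srebf2 at 56.1 ± 1.29 CPM per kb. The next places, Scd1 at 49.9 ± 1.11 and Fads1 at 49.9 ± 0.0676 CPM per kb, did not differ beyond their spread. Srebf1 stood at 23.7 ± 0.49 CPM per kb, less than Srebf2. The lowest levels were those of Mylip (0.75 ± 0.301), Nr1h3 (0.164 ± 0.0597) and Abcg1 (0.0551 ± 0.0198 CPM per kb), the members that rose most after poly(I:C). Nr1h3 does not reach the count minimum in mock and was tested because it reaches it with both mimics. Abcg1 reaches it only with poly(I:C). The rise of both was thus a condition of their being tested. Among the 38 members, Sqle went from place 7 in mock to place 14 after poly(I:C), and Mylip from place 36 to place 31.

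Among the 5 genes of SREBP control, 4 fell after poly(I:C), where 36.3% of all genes tested were called lower. Among genes with a mean of at least 20 CPM that share was 50.9%. The transcript of SREBP-2, the main activator of the sterol genes, stood at 407, 409.8 and 392 CPM in the mock libraries, 393, 402 and 395 CPM with poly(dA:dT) and 314, 309.8 and 327 CPM with poly(I:C). All 3 poly(I:C) libraries lay below all others, a log2 fold change against mock of -0.35 ± 0.02 (SE; edgeR adjusted p = 7.14e-33), while mock and poly(dA:dT) overlapped. Srebf1, which drives the fatty acid genes more, had 131, 136 and 133 CPM in mock, 142, 143 and 138 CPM with poly(dA:dT) and 131, 128 and 126 CPM with poly(I:C). It rose slightly after poly(dA:dT) (0.08 ± 0.03, edgeR adjusted p = 0.0191), a call lost in 5 of 14 alternatives, DESeq2 and its size factors among them. Its poly(I:C) libraries overlapped those of mock (-0.05 ± 0.03, not called). The direction of that value is not settled, since 5 of 14 alternatives, DESeq2 among them, called Srebf1 lower, and the values ran from -0.08 to 0.06, the positive one with total counts. Scap, the escort of both precursors, had 96.6, 96.9 and 89.1 CPM in mock, 92.9, 90.1 and 91.8 CPM with poly(dA:dT) and 74.3, 74.6 and 81.1 CPM with poly(I:C). It fell after poly(I:C) without overlap (-0.31 ± 0.04, edgeR adjusted p = 1.35e-13). An opposite-strand transcript covers 13.2% of its exons, and the library kit does not mark strand.

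The INSIG genes, both of which keep SREBP precursors in the endoplasmic reticulum, moved in opposite directions after poly(dA:dT). Insig1, itself an SREBP target (ENSMUSG00000045294, chromosome 5, 28071363 to 28078662, GRCm38 as all positions here), had 62.4, 62.6 and 65.1 CPM in mock, 72.1, 66.8 and 72.1 CPM with poly(dA:dT) and 49.1, 52 and 47.5 CPM with poly(I:C). It was highest in the poly(dA:dT) libraries and lowest in the poly(I:C) libraries, with no overlap between any groups. Its log2 fold change was 0.15 ± 0.04 (SE) after poly(dA:dT) (edgeR adjusted p = 0.000609) and -0.35 ± 0.04 after poly(I:C) (adjusted p = 6.24e-13). Insig2, whose transcription depends less on sterols, had 59.1, 60.2 and 62.8 CPM in mock, 48.5, 49.2 and 50.4 CPM with poly(dA:dT) and 43.4, 41.9 and 46.4 CPM with poly(I:C). Both mimics lowered it, with log2 fold changes of -0.29 ± 0.04 and -0.47 ± 0.05 (edgeR adjusted p = 1.96e-09 and 7.94e-19). The ratio of Insig1 to Insig2 in levels per kb was 1.19, 1.17 and 1.16 in mock, 1.67, 1.53 and 1.61 with poly(dA:dT), and 1.27, 1.39 and 1.15 with poly(I:C). The ratio was higher in the poly(dA:dT) libraries than in all 6 others, and the poly(I:C) libraries overlapped mock.

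Promoter sequences of leading members are shown because SREBPs act through short sterol regulatory elements near the start site, usually beside boxes bound by NF-Y and Sp1. RefSeq (GRCm38.p6) windows from 250 bases before to 50 bases after the annotated start were found for 30 of the 38 members. Sqle and Scd2 are among those with no entry. The windows below are those of Hmgcs1 (chr13:119690101-119690400, plus strand), Nsdhl (chrX:72918271-72918570, plus strand), Insig1 (chr5:28071162-28071461, plus strand), the principal start of Insig2 (chr1:121327629-121327928, minus strand) and Mylip (chr13:45389492-45389791, plus strand), each written 5′ to 3′ along the gene. Capitals mark the sterol regulatory element TCACNCCAC and the NF-Y box CCAAT, each searched on both strands, so CCAAT on the other strand reads ATTGG.
Hmgcs1: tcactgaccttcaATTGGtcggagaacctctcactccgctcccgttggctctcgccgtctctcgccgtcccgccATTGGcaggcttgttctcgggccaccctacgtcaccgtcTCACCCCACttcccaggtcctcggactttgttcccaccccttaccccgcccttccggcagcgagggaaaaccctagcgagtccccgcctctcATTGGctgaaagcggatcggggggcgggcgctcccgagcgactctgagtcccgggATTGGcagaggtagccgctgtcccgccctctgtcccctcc
Nsdhl: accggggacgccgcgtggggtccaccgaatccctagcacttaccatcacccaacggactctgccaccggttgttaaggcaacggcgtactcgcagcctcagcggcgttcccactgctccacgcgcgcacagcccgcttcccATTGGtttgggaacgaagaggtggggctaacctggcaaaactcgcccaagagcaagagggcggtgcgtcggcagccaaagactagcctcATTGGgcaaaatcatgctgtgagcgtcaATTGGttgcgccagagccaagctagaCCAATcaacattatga
Insig1: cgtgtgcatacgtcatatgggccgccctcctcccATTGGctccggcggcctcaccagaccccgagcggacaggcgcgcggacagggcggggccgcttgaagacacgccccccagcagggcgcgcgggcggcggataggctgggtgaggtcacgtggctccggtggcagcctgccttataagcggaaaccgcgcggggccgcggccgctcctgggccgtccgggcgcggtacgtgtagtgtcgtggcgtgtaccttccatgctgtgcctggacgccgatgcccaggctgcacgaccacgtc
Insig2: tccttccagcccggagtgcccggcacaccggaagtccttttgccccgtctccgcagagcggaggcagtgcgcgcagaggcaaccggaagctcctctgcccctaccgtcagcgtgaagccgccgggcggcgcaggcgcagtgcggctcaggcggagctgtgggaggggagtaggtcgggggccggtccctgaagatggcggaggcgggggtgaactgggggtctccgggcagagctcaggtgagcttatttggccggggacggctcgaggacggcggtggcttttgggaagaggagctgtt
Mylip: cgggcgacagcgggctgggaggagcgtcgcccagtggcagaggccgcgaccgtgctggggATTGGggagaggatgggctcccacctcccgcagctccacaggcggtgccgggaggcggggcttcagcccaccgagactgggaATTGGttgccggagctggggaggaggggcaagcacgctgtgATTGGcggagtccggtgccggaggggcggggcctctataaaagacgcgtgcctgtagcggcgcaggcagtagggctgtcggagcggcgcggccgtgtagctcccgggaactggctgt
Hmgcs1 was picked after its match was seen, and the others for the size of their change within their role or as the INSIG pair. Acat2 (chr17:12960676-12960975, minus strand) and Elovl6 (chr3:129532136-129532435, plus strand) were also picked for the size of their change, and their windows, not printed, hold neither of the capitalised motifs. The element of Hmgcs1, TCACCCCAC, begins 137 bases before the start, and the Hmgcs1 window also holds 4 CCAAT boxes. The exact element was found in 1.24% of all 32851 windows and in 1 of the 39 windows of these members. CCAAT was found in 37.4% of all windows and in 23 of the 39. GGGCGG, the Sp1 box, not capitalised above, was found in 35.7% of all windows and in 28 of the 39. The Nsdhl window holds 4 CCAAT boxes, that of Mylip 3 and that of Insig1 1. The Insig2 window shown holds none, though another window of Insig2 does. GAAANNGAAA, the core of an interferon-stimulated element, was found in 3.44% of all windows and in 1 member window, that of Ebp. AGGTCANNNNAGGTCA, an LXR element, was found in 5 windows, 0.0152% of all, and in none of the members'. The capitalised matches do not overlap one another. These are matches of letters within 300 bases and not evidence of binding.

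The listed genes of the first steps, from acetyl-CoA to farnesyl pyrophosphate, all fell after poly(I:C): 7 of 7 were called lower, with a median log2 fold change of -0.48. Of all genes tested 36.3% were called lower, and of those with a mean of at least 20 CPM 50.9%. Acat2, the cytosolic thiolase that joins acetyl-CoA units, had 98.3, 93.2 and 97 CPM in mock, 84.1, 87.6 and 81.5 CPM with poly(dA:dT) and 55.6, 54.3 and 52 CPM with poly(I:C). The 3 groups did not overlap, and the fall after poly(I:C) was 1.78-fold (-0.83 ± 0.04 on the log2 scale, edgeR adjusted p = 7.16e-47). Acat2 shares 39.1% of its 50-base words with other transcripts, Acat3 chiefly. Acat3 stood at 0.258 CPM in mock, and the split of reads between the pair is uncertain. Hmgcs1, which makes hydroxymethylglutaryl-CoA, had 132, 133 and 138 CPM in mock, 123, 122 and 127 CPM with poly(dA:dT) and 84.6, 80.8 and 79.9 CPM with poly(I:C). It too was lowest in every poly(I:C) library, 1.64-fold below mock (-0.71 ± 0.03, edgeR adjusted p = 3.88e-47), and was called slightly lower after poly(dA:dT) (-0.11, adjusted p = 0.0011), though not with total counts. Gm48342 on the opposite strand covers 12.1% of the exons of Hmgcs1, which shares 11.6% of its 50-base words with other genes. Fdps, the farnesyl pyrophosphate synthase gene, had a low level of 5.08, 5.03 and 5.05 CPM in mock, 5.27, 4.45 and 4.57 CPM with poly(dA:dT) and 2.81, 2.72 and 3.42 CPM with poly(I:C). Its poly(I:C) libraries lay below all others (-0.78 ± 0.15, edgeR adjusted p = 1.97e-06), but the annotated gene Gm43738 covers 26.7% of its exons on the same strand, so the level of Fdps is uncertain.

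The 4 listed enzymes between Hmgcs1 and Fdps fell by less. Mevalonate kinase (Mvk) changed by -0.26 ± 0.04 on the log2 scale after poly(I:C), phosphomevalonate kinase (Pmvk) by -0.37 ± 0.05, mevalonate diphosphate decarboxylase (Mvd) by -0.48 ± 0.04 and the isopentenyl diphosphate isomerase Idi1 by -0.39 ± 0.03 (SE). After poly(dA:dT) none of these 4 was called in edgeR, with values from -0.08 to 0.03, though Mvd was called higher with total counts and Idi1 lower with DESeq2 size factors. Idi1 shares 25.3% of its 50-base words with other genes, the processed pseudogene Gm13502 chiefly.

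From squalene to cholesterol the enzymes did not move as 1 block. After poly(I:C) 7 of 11 fell, 2 rose and 2 were not called, with a median of -0.30. The shares of all genes tested were 36.3% lower and 39.8% higher, and 50.9% and 35.0% among those with a mean of at least 20 CPM. The largest fall was that of squalene epoxidase, a rate-limiting enzyme of this stretch (Sqle, ENSMUSG00000022351, chromosome 15, 59315077 to 59331192). Sqle had 217, 219 and 221 CPM in mock, 191, 195 and 197 CPM with poly(dA:dT) and 111, 112 and 110.4 CPM with poly(I:C). Every poly(I:C) library was at about the same level, and the groups did not overlap. The fall was 1.97-fold after poly(I:C) (-0.98 ± 0.03, edgeR adjusted p = 5.43e-73) and 1.13-fold after poly(dA:dT) (-0.17 ± 0.03, adjusted p = 3.7e-09). Of all genes tested, 1.14% had a lower value than Sqle in the comparison of poly(I:C) with mock.

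Nsdhl, Ebp and Dhcr7, 3 later enzymes, also fell at least 1.5-fold with TMM scaling. Nsdhl, a sterol dehydrogenase that takes part in removing methyl groups from the ring, had 64.1, 60 and 62.7 CPM in mock, 58.5, 58 and 58.2 CPM with poly(dA:dT) and 40.4, 39.6 and 41 CPM with poly(I:C). Ebp, the sterol isomerase, had 51.5, 50.7 and 54.7 CPM in mock, 45, 43.5 and 46.5 CPM with poly(dA:dT) and 34, 35.8 and 33.8 CPM with poly(I:C). For both, the 3 groups were fully separated, with the poly(I:C) libraries lowest (-0.63 ± 0.05 and -0.59 ± 0.05 against mock, edgeR adjusted p = 2.35e-28 and 3.18e-23). The lower call of Nsdhl after poly(dA:dT) (-0.10 ± 0.04, edgeR adjusted p = 0.0388) was lost in 10 of 14 alternatives. Dhcr7, the reductase of the last step, had 19.8, 20.4 and 22 CPM in mock, 22.8, 20.4 and 19 CPM with poly(dA:dT) and 12.6, 14.9 and 12.7 CPM with poly(I:C). Its mock and poly(dA:dT) libraries overlapped, and the poly(I:C) libraries lay below both (-0.61 ± 0.08, edgeR adjusted p = 2.06e-12). The methylsterol oxidase Msmo1 (-0.40 ± 0.03), the desaturase Sc5d (-0.30 ± 0.05) and the lanosterol demethylase Cyp51 (-0.24 ± 0.03) fell by less after poly(I:C). Stard4, a carrier that moves cholesterol between membranes, fell after both mimics (-0.24 and -0.32), and the difference between the 2 treatments was not called (-0.08 ± 0.04).

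Lanosterol synthase (Lss), which closes the ring, went the other way. It had 76.3, 75.9 and 75.5 CPM in mock, 89.6, 87.9 and 89.1 CPM with poly(dA:dT) and 82.1, 82.1 and 87.2 CPM with poly(I:C). Both treated groups lay above mock (0.23 ± 0.04 and 0.14 ± 0.04 on the log2 scale, edgeR adjusted p = 1.5e-08 and 0.000339). Squalene synthase (Fdft1) was called higher after both mimics by small amounts (0.11 and 0.15, edgeR adjusted p = 0.0313 and 0.00242), and DESeq2 called neither. The poly(dA:dT) call was lost in 7 of 14 alternatives. Ctsb on the opposite strand covers 18.3% of the exons of Fdft1 and fell after poly(I:C) (-0.57 ± 0.02), and reads of the pair cannot be told apart by strand. Hsd17b7, a ketosteroid reductase, changed by -0.01 ± 0.04 after poly(I:C), which was not called and turned to 0.11 with total counts. The sterol reductase Tm7sf2 changed by 0.15 ± 0.14 and was not called, and Vps51 covers 12.1% of its exons on the same strand.

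Summed over the 18 listed enzymes from Acat2 to Dhcr7, the mock libraries stood at 1379.8, 1373 and 1399.5 CPM. The sums were 1345, 1341 and 1348 CPM with poly(dA:dT) and 1025, 1021 and 1016 CPM with poly(I:C). The poly(I:C) libraries were 73.7% of mock on average and the poly(dA:dT) libraries 97.1%. Of the 18, 14 fell and 2 rose after poly(I:C), and 6 fell and 3 rose after poly(dA:dT). After poly(I:C) 36.3% of all genes tested were lower and 39.8% higher, and after poly(dA:dT) 26.2% and 26.6%. Among genes with a mean of at least 20 CPM, 50.9% were lower after poly(I:C) and 40.4% after poly(dA:dT). The poly(dA:dT) count of the 18 is thus no larger than the share of abundant genes. In the same poly(I:C) libraries the 14 fibroblast markers summed to 81.4% of mock, and the part of that shift in the members' fall was not tested.

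Fatty acid synthesis showed 7 of 9 genes lower, 1 higher and 1 not called after poly(I:C) and a median of -0.35. Of all genes tested 36.3% were lower and 39.8% higher, and of those with a mean of at least 20 CPM 50.9% and 35.0%. Scd2, the desaturase that makes monounsaturated fatty acids (ENSMUSG00000025203, chromosome 19, 44293674 to 44306864), had 1435, 1450.0 and 1477 CPM in mock, 1173, 1181 and 1179.6 CPM with poly(dA:dT) and 669.7, 681 and 701 CPM with poly(I:C). The 3 groups were far apart relative to their spread. The fall was 2.13-fold after poly(I:C) (-1.09 ± 0.02, edgeR adjusted p = 8.34e-107) and 1.23-fold after poly(dA:dT) (-0.30 ± 0.02, adjusted p = 7.05e-36). Its close relative Scd1 fell less, with log2 fold changes of -0.49 ± 0.03 after poly(I:C) and -0.15 ± 0.02 after poly(dA:dT). The ratio of Scd2 to Scd1 in levels per kb was 5.36, 5.34 and 5.29 in mock, 4.84, 4.83 and 4.73 with poly(dA:dT) and 3.47, 3.49 and 3.61 with poly(I:C), so the groups did not overlap in this ratio.

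Acly, which supplies cytosolic acetyl-CoA from citrate, had 444, 455 and 438 CPM in mock, 387, 395 and 386 CPM with poly(dA:dT) and 295, 285 and 299.7 CPM with poly(I:C). Elovl6, the elongase of saturated fatty acids, had 63.2, 65.4 and 68.6 CPM in mock, 54.6, 53.2 and 56.7 CPM with poly(dA:dT) and 41.5, 42.6 and 44.5 CPM with poly(I:C). Both were lower after poly(dA:dT) and lowest after poly(I:C), with no overlap between groups and log2 fold changes of -0.20 ± 0.02 and -0.26 ± 0.04 with poly(dA:dT) and -0.61 ± 0.02 and -0.62 ± 0.04 with poly(I:C) (edgeR adjusted p from 4.34e-08 to 2.2e-59). Fatty acid synthase (Fasn, -0.35 ± 0.02) and the desaturase Fads2 (-0.32 ± 0.03) fell after poly(I:C), and neither was called after poly(dA:dT) (0.03 and -0.05). The carboxylase gene Acaca was called slightly lower after poly(I:C) (-0.08 ± 0.03), with libraries that overlapped mock, and turned to 0.039 with total counts. It shares 30.4% of its 50-base words with other genes, chiefly the processed pseudogene Gm5182. Fads1, the other front-end desaturase, was not called after either mimic (0.02 ± 0.02 and -0.05 ± 0.03). Its direction after poly(I:C) is not settled, since 7 of 14 alternatives called it. The values ran from -0.09 to 0.064, the positive one with total counts. Acss2, which makes acetyl-CoA from acetate, was called higher after both (0.22 and 0.22), calls that DESeq2 did not make and that were lost in 2 and 3 of 14 alternatives. Summed over the 9 genes, the level after poly(I:C) was 63.9% of mock, and 78% without Scd2.

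**Figure D3:**
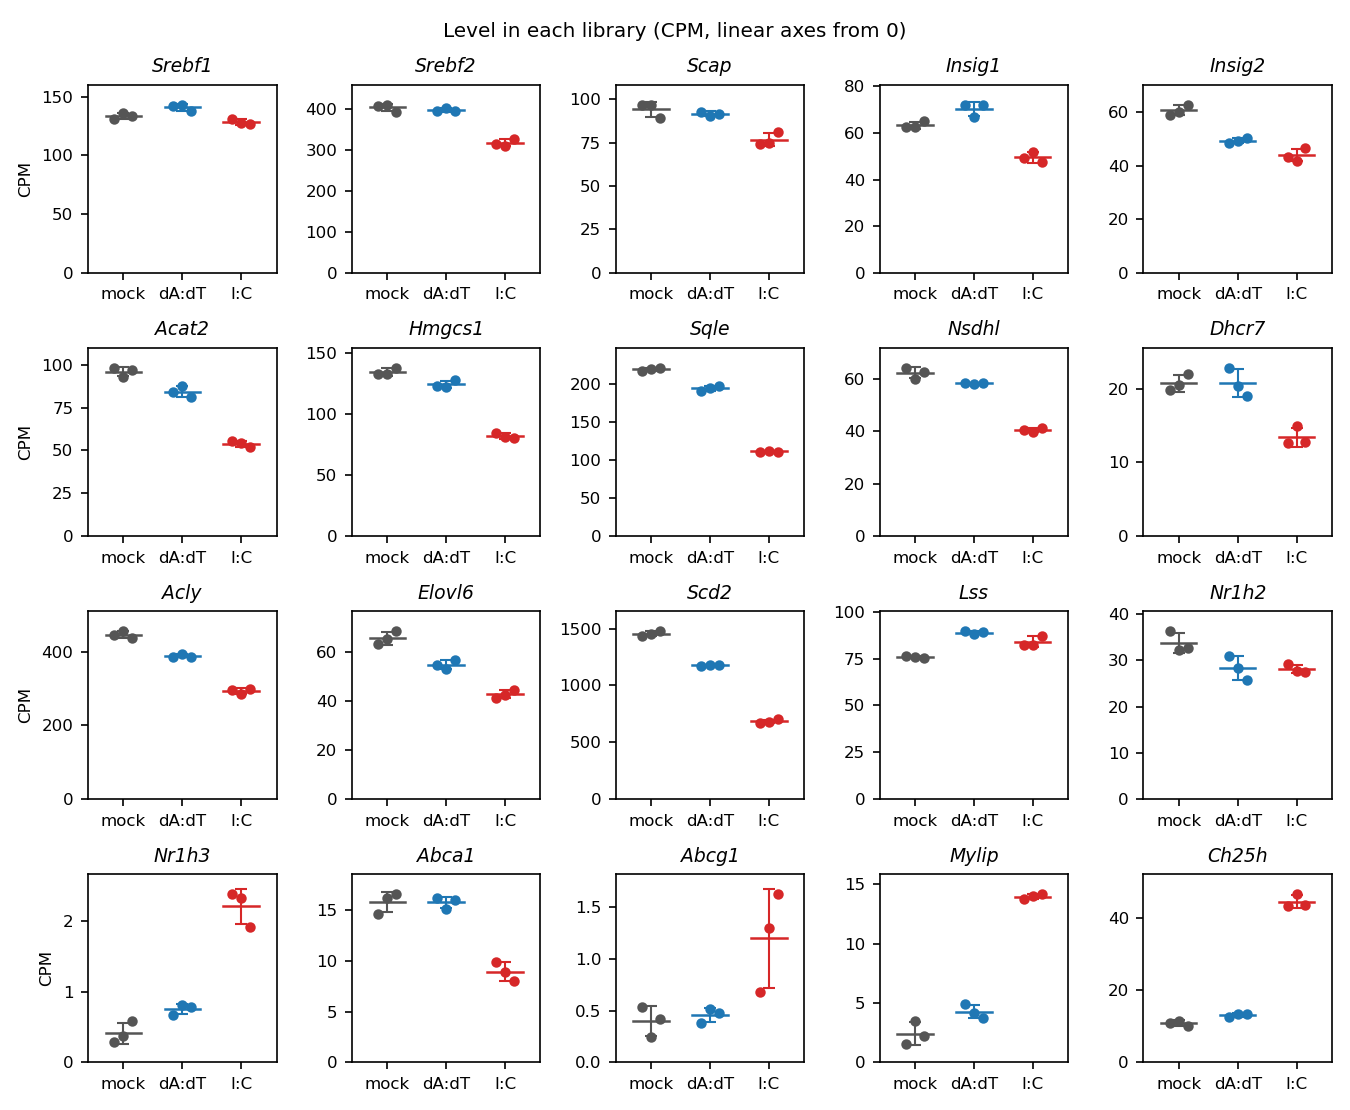
CPM of leading members and of the oxysterol enzyme gene Ch25h in each of the 3 libraries of mock, poly(dA:dT) (dA:dT) and poly(I:C) (I:C), with a line for the mean and bars for the SD; each panel has its own linear axis from 0. The poly(I:C) libraries of Sqle (111, 112 and 110.4 CPM) and Scd2 (669.7, 681 and 701 CPM) lie far below mock, while Lss is above mock in both treated groups.

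Of the LXR receptors and their targets, Nr1h2 and Abca1 fell and Mylip rose after poly(I:C). Nr1h3 was tested only because it reaches the count minimum in treated cells, and Abcg1 only because it reaches it with poly(I:C). LXRβ, the form made in most cells, is encoded by Nr1h2, which had 36.3, 32.2 and 32.6 CPM in mock, 30.9, 28.3 and 25.7 CPM with poly(dA:dT) and 29.2, 27.7 and 27.5 CPM with poly(I:C). It fell to a like level after both mimics (-0.26 ± 0.06 and -0.27 ± 0.06, edgeR adjusted p = 4.71e-05 and 2.5e-05), and the 2 treatments overlapped. LXRα, the form of liver, fat and macrophages, is encoded by Nr1h3, which had 8, 9 and 11 counts in mock, 14, 19 and 18 with poly(dA:dT) and 49, 54 and 32 with poly(I:C). That is 0.286, 0.374 and 0.579 CPM, 0.671, 0.813 and 0.783 CPM and 2.38, 2.33 and 1.92 CPM, a low level in every group. The poly(I:C) libraries were 5.55-fold above mock (2.47 ± 0.31, edgeR adjusted p = 1.44e-12), and the poly(dA:dT) call (0.93 ± 0.38, adjusted p = 0.032) was lost in 6 of the 13 alternatives that tested it, with a value as low as 0.70 and an adjusted p of up to 0.174.

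Of the sterol exporters, Abca1 fell after poly(I:C), while Abcg1 reaches the count minimum only with poly(I:C). Abca1, which loads cholesterol onto lipid-poor apolipoprotein, had 14.7, 16.2 and 16.6 CPM in mock, 16.2, 15.1 and 16 CPM with poly(dA:dT) and 9.89, 8.92 and 8.04 CPM with poly(I:C). Mock and poly(dA:dT) overlapped, and poly(I:C) lay 1.75-fold below mock (-0.81 ± 0.09, edgeR adjusted p = 3.07e-15). Abcg1, which exports sterol to mature lipoprotein, had 15, 6 and 8 counts in mock, 8, 12 and 11 with poly(dA:dT) and 14, 30 and 27 with poly(I:C). Its poly(I:C) libraries at 0.679, 1.29 and 1.62 CPM lay above the 0.537, 0.249 and 0.421 CPM of mock (1.52 ± 0.37, edgeR adjusted p = 0.000113). That p-value is no support for the rise of Abcg1, which was a condition of its being tested. Mylip, an LXR-induced ubiquitin ligase that marks lipoprotein receptors for degradation, had 1.58, 3.49 and 2.21 CPM in mock, 4.89, 4.15 and 3.78 CPM with poly(dA:dT) and 13.8, 14 and 14.2 CPM with poly(I:C). The 3 groups did not overlap. It rose 1.77-fold after poly(dA:dT) (0.83 ± 0.16, edgeR adjusted p = 7.4e-06) and 5.81-fold after poly(I:C) (2.54 ± 0.13, adjusted p = 3.11e-36), the largest log2 change of the 38 members. Macrophages and endothelium make several of these transcripts. Of 8 macrophage markers 4 could be tested, and after poly(I:C) 1 was higher and 2 lower. Ptprc had no count in any library, and Adgre1 and Itgam had none in mock. The 8 summed to 4.21 to 5.15 CPM in mock and 4.5 to 7.2 CPM with poly(I:C). Of 7 endothelial markers 4 could be tested and 3 of these were higher after poly(I:C), with Cdh5, Erg and Emcn at no count in mock. Of all genes tested 39.8% were higher and 36.3% lower. The highest log2 fold change was 7.49 for the endothelial and 5.28 for the macrophage markers. A marker so low in mock is tested only because treated cells reach the count minimum, so its rise was a condition of testing. The 7 endothelial markers summed to 1.95 to 2.62 CPM in mock, 3.7 to 4.88 CPM with poly(dA:dT) and 5.58 to 6.93 CPM with poly(I:C). Their part in the rise of Nr1h3, Abcg1 and Mylip was not tested.

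Set against each other directly, the 2 mimics differed for most members. In poly(I:C) against poly(dA:dT), 29 members were lower, 4 higher and 5 not called, while 32.1% of all genes tested were called lower and 31.3% higher, and the median of the members was -0.30. Among genes with a mean of at least 20 CPM, 46.2% were lower and 29.0% higher. Of the 30 members at that level, 26 were lower and 1 higher. Both comparisons with mock use the same 3 mock libraries, so their values are given side by side and not as independent results. The direct difference was -0.81 ± 0.09 for Abca1, -0.80 ± 0.03 for Sqle, -0.79 ± 0.02 for Scd2, -0.69 ± 0.16 for Fdps, -0.64 ± 0.04 for Acat2 and -0.62 ± 0.08 for Dhcr7 on the log2 scale (SE). All 7 listed genes up to farnesyl pyrophosphate and all 5 listed genes of SREBP control were lower after poly(I:C) than after poly(dA:dT). Insig1 and Cyp51 were called higher than mock after poly(dA:dT) and lower than mock after poly(I:C), with direct differences of -0.50 ± 0.04 and -0.31 ± 0.03. Mylip (1.71 ± 0.12), Nr1h3 (1.55 ± 0.28) and Abcg1 (1.34 ± 0.37) were higher after poly(I:C). Abcg1 reaches the count minimum only with poly(I:C), so its higher level there was a condition of its being tested. Hsd17b7 was the other member called higher (0.10, edgeR adjusted p = 0.0435), with libraries that overlapped, and it was no longer called in 6 of 14 alternatives, DESeq2, no filter and the replicate block among them.

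Other lipid genes were read from 8 lists that exclude the members. After poly(I:C), 64 of the 98 tested were lower and 24 higher, with a median of -0.20, where 36.3% of all genes tested were lower and 39.8% higher. Among all genes with a mean of at least 20 CPM the shares were 50.9% and 35.0%. The summed level of these other lipid genes was 84.8% of mock, against 69.5% for the 38 members and 77.6% for the 37 members other than Scd2. After poly(dA:dT), 44 of the 98 were lower and 22 higher, where 26.2% of all genes tested were lower and 26.6% higher. For that comparison the shares among genes with a mean of at least 20 CPM were 40.4% and 28.0%. The counts of single lists that follow are small and are given as descriptions, to be read against the same shares. Of 7 genes that process or stabilise SREBPs, 6 fell after poly(I:C), including both proteases that cut the precursors, Mbtps1 (-0.54 ± 0.02) and Mbtps2 (-0.69 ± 0.04), and Erlin2 (-0.61 ± 0.04), which acts in degradation at the endoplasmic reticulum. Of 7 partners and other targets of LXR, 5 fell, with the shared partner receptor Rxra at -0.54 ± 0.03, Smpdl3b at -0.43, Lpcat3 at -0.20 and Pltp at -0.19, and none rose.

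Genes of oxysterol making and sterol esterification had 5 of 6 tested higher and 1 lower after poly(I:C). Of all genes tested 39.8% were higher and 36.3% lower. Among genes with a mean of at least 20 CPM, 35.0% were higher and 50.9% lower, and Soat2, Cyp46a1 and Cyp27a1 lie below that level. Ch25h, which makes an oxysterol that holds SREBPs back and activates LXRs, had 11, 11.6 and 10.1 CPM in mock, 12.5, 13.4 and 13.5 CPM with poly(dA:dT) and 43.5, 46.7 and 43.8 CPM with poly(I:C). All poly(I:C) libraries lay far above the rest, 4.09-fold over mock (2.03 ± 0.07, edgeR adjusted p = 3.58e-64), and the rise after poly(dA:dT) was 0.27 ± 0.08 (adjusted p = 0.00386). Soat2, an enzyme that esterifies cholesterol, had 0.895, 0.706 and 1.58 CPM in mock, 3.74, 2.18 and 2.87 CPM with poly(dA:dT) and 5.14, 3.71 and 4.62 CPM with poly(I:C), and rose after both mimics (1.51 ± 0.23 and 2.12 ± 0.21). The sterol hydroxylases Cyp46a1 (1.41 ± 0.22) and Cyp27a1 (0.63 ± 0.24) rose after poly(I:C) as well, from low means of 1.22 and 1.34 CPM in mock.

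The remaining 5 lists held both lower and higher genes after poly(I:C), and among all genes with a mean of at least 20 CPM 50.9% were lower and 35.0% higher. Fatty acid oxidation had 15 of 18 genes lower and 2 higher, led by the acyl-CoA dehydrogenases Acads (-0.76 ± 0.04), Acadm (-0.68 ± 0.04) and Acadl (-0.54 ± 0.04) and by Hadh (-0.56 ± 0.03). Glycerolipid synthesis had 11 of 17 lower and 4 higher, among them Agpat2 (-0.54), Lpin2 (-0.50), Agpat3 (-0.45) and, higher, the choline kinase Chka (0.55). Elongation and activation had 9 of 15 lower and 5 higher, with Acsl5 (-0.73) and Me1 (-0.59) lower and Elovl7 (1.62) and Mcat (0.70) higher. Sterol transport had 11 of 16 lower and 4 higher, with Lrp8 at -0.57 and Stard5 (0.97), Gramd1a (0.52) and Gramd1b (0.51) higher. Among 12 genes that use isoprenoids for other products 6 were lower and 4 higher, shares near those of abundant genes, and Pdss1 (0.99) and Coq2 (0.43) of ubiquinone synthesis and the prenyltransferase subunit Pggt1b (0.50) rose while the protease Zmpste24 (-0.43) fell.

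**Figure D4:**
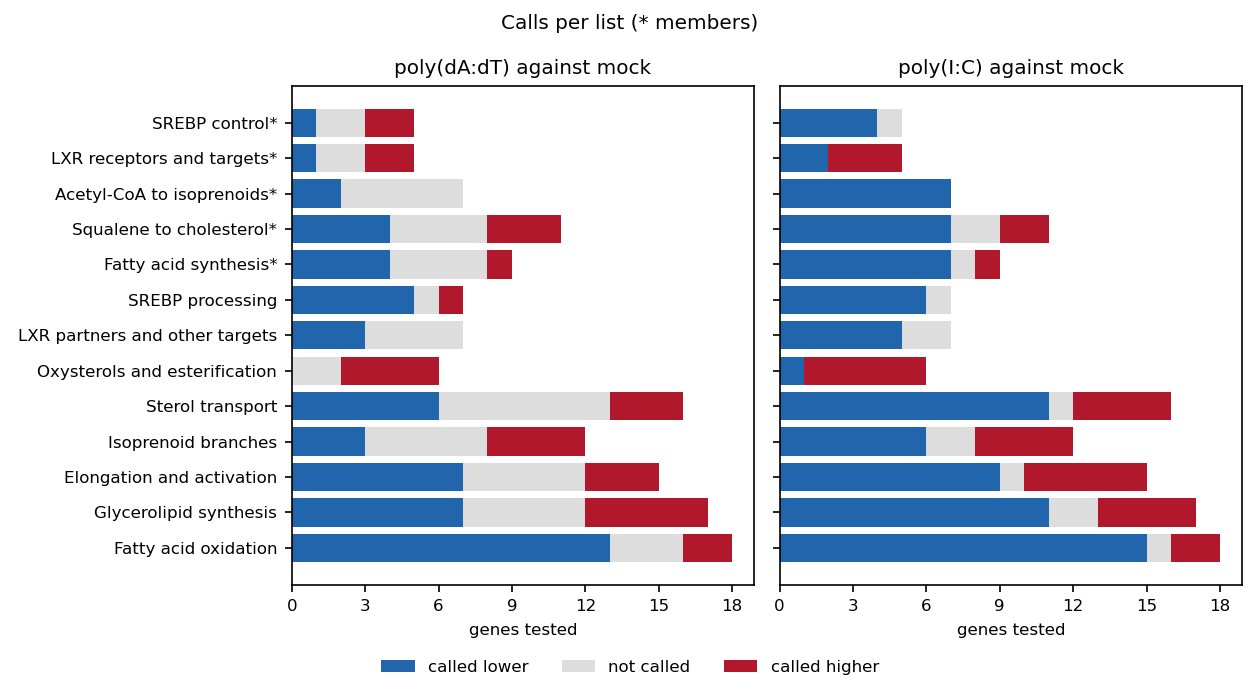
Number of tested genes called lower (blue), not called (grey) and called higher (red) in 5 lists of members (marked *) and 8 lists of other lipid genes, for poly(dA:dT) (left) and poly(I:C) (right) against mock. After poly(I:C) the lower calls fill the list from acetyl-CoA to isoprenoids (7 of 7) and most of fatty acid synthesis (7 of 9, of which Acaca reverses with total counts), and the higher calls fill most of the oxysterol and esterification list (5 of 6). Of all genes tested, 36.3% were lower and 39.8% higher after poly(I:C).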

How the data were processed

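The authors deposited 1 file of whole, unnormalized gene counts for each library, with 46603 identifiers in each. HTSeq, DESeq2, TopHat2 2.1.0 and the build GRCm38.p4 are named, with no order, per the submitters' processing notes. Not given in the sources used here are the strand setting, the annotation release and how multi-mapping reads were handled. Per the labels, libraries were made from total RNA with a TruSeq kit, which in this version does not mark strand. GENCODE M21 held 46091 identifiers; 0.0588% of counts fell on the 512 it lacked. All 38 members and all 144 other listed symbols were matched, 1 by an older symbol.

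The deposited counts were fitted with edgeR 4.0.16 in R 4.3.3: TMM scaling, filterByExpr by group, the robust quasi-likelihood test, two-sided, with all 9 libraries in 1 fit and Benjamini-Hochberg adjustment over 14176 genes at a threshold of 0.05. Log2 fold changes use a prior count of 0.125, and the SE is the size of the log2 fold change over the root of F. CPM use TMM-scaled library sizes, and CPM per kb use merged exon lengths. The script was tested on simulated counts. Replicates of a group differed by more than sampling noise (chi-square per degree of freedom from 1.64 to 2.1), so each library was counted once. Shared sequence was counted as 50-base words of a member's transcripts found in other genes, and as exon overlap. Alternatives were DESeq2 1.42.0, other scaling factors and filters, a fit of the compared groups only, a replicate block and leaving out each library; those using genes of at least 20 CPM, leaving out members with shared sequence and leaving Scd2 out of sums were chosen after seeing the data. The members, the other lists and the rules were chosen with earlier results of these data known. All members are named, with every library's value for regulators, LXR receptors and members called with at least a 1.5-fold change, and up to 4 called genes per other list with a mean of at least 1 CPM and the largest poly(I:C) change. No list was tested as a set. A gene that this rule takes is not reported here.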

Additional observations from a re-analysis of the deposited data

Results flagged for a closer look

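Insig1, Cyp51 and Lpin1 drew attention because they were called higher than mock after poly(dA:dT) and lower than mock after poly(I:C), with the direct comparison of the 2 mimics also called. For Insig1 the direct log2 difference was -0.50, and all 3 calls held in every alternative run. For Cyp51 it was -0.31, with 159 ± 3.24 CPM in mock, 166 ± 3.38 CPM with poly(dA:dT) and 134 ± 3.22 CPM with poly(I:C) (SD, n = 3). Its rise after poly(dA:dT) of 0.07 was lost with DESeq2, with DESeq2 size factors, with no filter, and on leaving out mock replicate 2 or poly(dA:dT) replicate 1, while its fall after poly(I:C) held in every alternative. For Lpin1, a phosphatidate phosphatase of glycerolipid synthesis named after its values were seen, it was -0.96, with 5.33, 6.44 and 4.84 CPM in mock, 8.34, 7.44 and 9.48 CPM with poly(dA:dT) and 4.46, 4.53 and 3.9 CPM with poly(I:C). Its fall after poly(I:C) (-0.36) was lost with total counts (-0.25) and without mock replicate 2 (-0.25).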

How the results depend on the processing

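Scaling by total counts in place of TMM raised the median log2 fold change of all genes after poly(I:C) by 0.11, so small changes are relative to the scaling. The 28 members lower after poly(I:C) kept that call in every alternative that tested them except Acaca, and the 6 higher except Acss2 and Fdft1. After poly(dA:dT), 10 of 13 lower and 3 of 8 higher members kept theirs, and in the direct comparison 26 of 29 and 3 of 4. The members called higher after poly(dA:dT) numbered 5 with DESeq2 size factors, 14 with total counts, 3 with DESeq2 and 5 with no filter, and 4 to 8 when 1 library was left out (4 without mock replicate 2 and 5 leaving out poly(dA:dT) replicate 1). With total counts 2389 genes of all tested were lower after poly(dA:dT). With a filter of 50 counts, which leaves out Nr1h3 and Abcg1, 2 members were higher in the direct comparison. With total counts the sign turned for 6 members after poly(dA:dT), of which Srebf2 (0.050) was then called and Scap, Mvk, Idi1, Sc5d and Fads2 were called in neither setting. After poly(I:C) it turned for 4, Hsd17b7 (0.11), Acaca (0.039), Fads1 (0.064) and, called in neither setting, Srebf1. Other settings turned the sign only of members that were not called. Members at least 1.5-fold lower after poly(I:C) numbered from 6 to 11. Libraries with the same number did not deviate together (correlations from -0.0138 to 0.0225). The labels do not say whether the numbers pair libraries, and correlations near 0 cannot decide it, since libraries handled together need not deviate together. With a replicate block, 8 members were higher and 13 lower with poly(dA:dT), 6 and 28 with poly(I:C), and 3 and 29 in the direct comparison. Without the 8 members that share at least 10% of their sequence or exons with other genes, 22 of 30 were lower and 5 higher after poly(I:C). The cause of these shifts was not tested. Depth limits Nr1h3, Abcg1 and Fdps most.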

Other observations

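Among the adipocyte markers, Plin4, which coats lipid droplets, was the 1 with a sizeable level. It had 63.3, 61.5 and 57.4 CPM in mock, 52.4, 53.4 and 48.5 CPM with poly(dA:dT) and 35.3, 31.6 and 35 CPM with poly(I:C), with no overlap between the groups, and its log2 fold change was -0.24 ± 0.04 with poly(dA:dT) and -0.85 ± 0.05 with poly(I:C) (SE; edgeR adjusted p = 7.36e-07 and 2.88e-37). Among the fibroblast markers, Fn1 rose after poly(I:C) (0.40 ± 0.02), while Sparc (-1.05 ± 0.02) and Col3a1 (-1.16 ± 0.03) fell. Col1a1 stood at 457 ± 12.2 CPM per kb in mock and Col1a2, which encodes the partner chain of the same collagen, at 1.76 ± 0.108 CPM per kb (SD, n = 3).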
